A study of Homo sapiens with 2 samples.

Results

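The mRNAs of translation initiation and elongation factors were compared between HCT116 cells, a human colorectal carcinoma cell line, expressing a control shRNA and the same cells with LAST, a long noncoding RNA, knocked down by shRNA. Gene records were taken by symbol, those starting with EIF and a digit from 1 to 6 or with EEF1 or EEF2, leaving out the eIF2 kinases (EIF2AK) and EEF1E1, which gave 58 of 11420 records. The mRNA-seq experiment asked which genes change in level when LAST is knocked down. Both groups were infected with lentiviruses, were grown in the same medium and gave RNA 96 hr after infection, so the shRNA is the only labelled difference. Each group was 1 library made with 1 shRNA, so no difference could be set against a spread between replicates, and none was tested. Whether infected cells were selected or cloned is not given in the labels, and LAST itself, being noncoding, was not analysed here.

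Levels are FPKM, fragments mapped to a gene per length of its transcript and size of the library, as the authors deposited them. The log2 ratio of a gene is the LAST shRNA value minus the control shRNA value after a log2(FPKM + 1) transform, on which weak genes differ less than their FPKM do, and every fold is a ratio of FPKM. The number of reads behind the values is unknown. All 11420 records were of protein-coding type, their FPKM summed to 154798 with control shRNA against 155390 with LAST shRNA, and 3 rescalings of the libraries moved log2 ratios by 0.01 at most. Of 9 epithelial and colorectal markers 6 were measured. EPCAM, KRT8, KRT18 and KRT19 were at an FPKM of 137 or more in both libraries and CDH1 at 15.8 and 21.999, while the intestinal factor CDX2 was at 1.58 and 1.02, and VIL1, CDX1 and LGALS4 were not among the records. None of 4 blood or 3 endothelial markers was among the records, and of 4 stromal markers COL1A1 was, at an FPKM of 1.32 and 1.90.

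Protein synthesis begins when eIF2 carries the initiator tRNA to the small ribosomal subunit, eIF3 and the scanning factors hold that subunit ready, and the eIF4 proteins bring it to the capped end of an mRNA. After the start codon is found and the large subunit joins, eEF1 delivers aminoacyl-tRNAs and eEF2 moves the ribosome along. Many of these factors are controlled after transcription, eIF2 and eEF2 by phosphorylation and eIF4E by its binding proteins, so mRNA levels give only part of their activity.

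The translation factor mRNAs were abundant and differed little between the libraries. Each of the 58 genes reached an FPKM of 1 or more in each library, with a median FPKM of 41.1 with control shRNA against 44.3 with LAST shRNA, and they held 2.77% and 2.85% of the summed FPKM. Their median log2 ratio was 0.02, against 0.01 over all records, with 31 genes above 0 and 27 below. EIF1B, a close relative of the start codon selection factor EIF1, was the only one at or above 0.58, the mirror image of the cutoff the study set for lower genes, where 6.80% of all records lay. No translation factor was at or below -0.58, where 5.88% of all records lay. The log2 ratios of the translation factors ran from -0.41 to 0.61, and 42 of the 58 (72.4%) lay within 0.2 of 0, against 52.4% of all records. The SD of the log2 ratio across genes was 0.20 for the translation factors and 0.52 for all records. Across the 58 genes, which share both libraries, the log2(FPKM + 1) levels of the libraries had a Pearson r of 0.99, against 0.94 across all 11420 records.

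**Figure D1:**
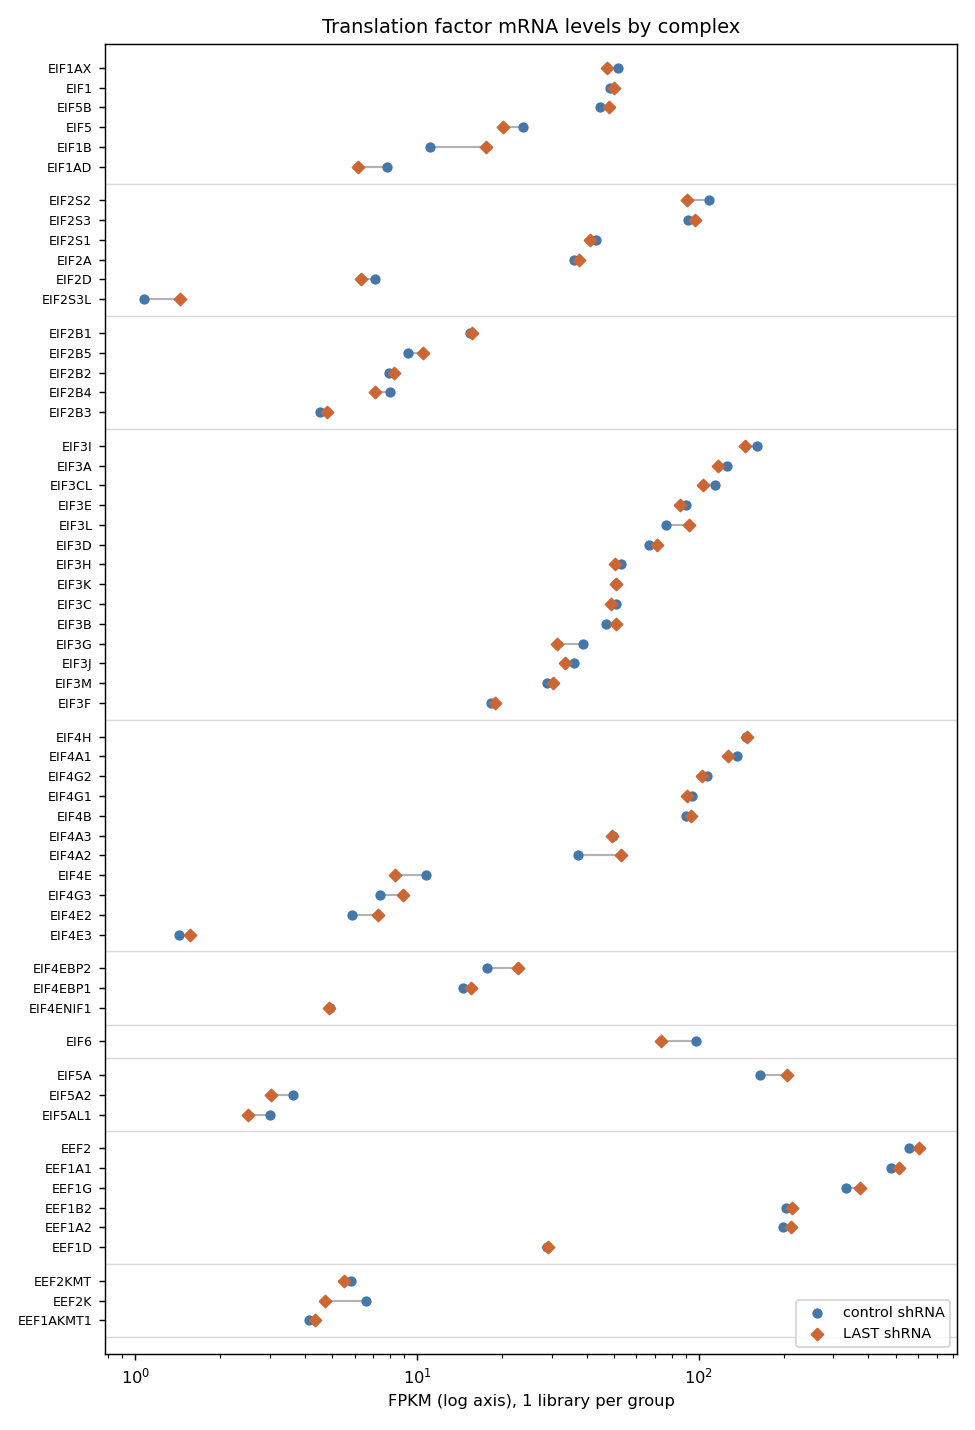
FPKM of each of the 58 translation factor genes on a log axis, grouped by factor complex from scanning factors at the top to enzymes that modify elongation factors at the bottom, with a circle for the control shRNA library and a diamond for the LAST shRNA library. Levels run from an FPKM of 1.07 for EIF2S3L to 603 for EEF2, and the symbols of most genes touch, with the widest gap at EIF1B.

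The translation factors were also set beside records above a minimum level and records of like exon structure. Neither set was matched in level. The median FPKM with control shRNA was 52.8 for the translation factors above the minimum, against 19.6 for all such records. In the exon structure sets it was 71.7 against 6.34. Among records at a mean FPKM of at least 10, 6.10% were at -0.58 or lower and 6.02% at 0.58 or higher, against 0 and 1 of the 41 translation factors there. Among records whose largest exon makes up under 50% of the transcript, 3.10% were lower and 3.89% higher, against 0 and 1 of the 34 translation factors. The SD of log2 ratios was 0.19 for the 41 translation factors against 0.55 for all 3490 records above the minimum level. It was 0.20 for the 34 against 0.33 for all 5089 records of that structure.

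**Figure D2:**
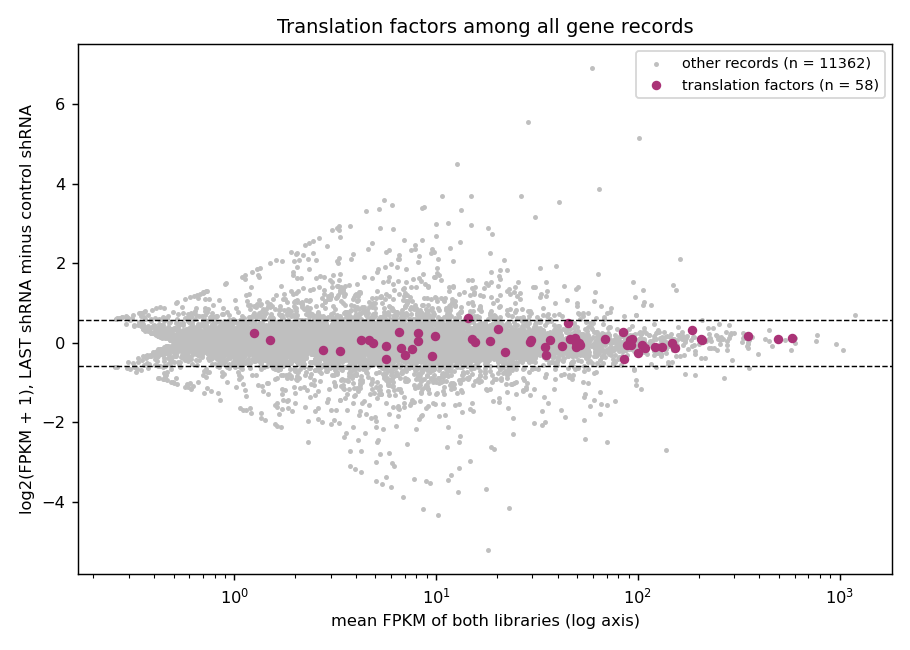
Log2 ratio of LAST shRNA over control shRNA against mean FPKM of both libraries on a log axis, with grey points for the 11362 other records, coloured points for the 58 translation factors and dashed lines at -0.58 and 0.58. The translation factors form a band between -0.41 and 0.61 at all levels, and 1 of them, EIF1B, lies above the upper line.

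The scanning and subunit joining factors had a median log2 ratio of -0.04 over 6 genes, and EIF1B stood above the other 5. EIF1B, at chr3:40351175-40353915 on the plus strand in hg19, was at an FPKM of 11.2 with control shRNA and 17.6 with LAST shRNA, 1.58-fold higher (log2 ratio 0.61). Of all records, 6.32% had a log2 ratio at least as high. EIF1, which keeps the scanning ribosome from starting at wrong codons, was nearly equal in the libraries, at an FPKM of 48.4 with control shRNA and 50.01 with LAST shRNA. The share of EIF1B in the summed FPKM of the pair was 18.7% and 26.0%, so EIF1 remained the more abundant of them. The 2 coding sequences are 339 bases each and 82.0% identical, and no stretch of 50 bases is shared between them, so that coding reads of that length can be told apart. The start of both coding sequences is shown because the separate values of EIF1 and EIF1B rest on such differences, with the first 60 bases from the start codon in the GENCODE release 29 annotation and the 4 differing bases in capitals:
EIF1: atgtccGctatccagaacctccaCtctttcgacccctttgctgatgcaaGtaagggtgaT
EIF1B: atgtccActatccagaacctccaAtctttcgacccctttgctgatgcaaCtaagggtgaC

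The other scanning and joining factors were within 0.30 of a log2 ratio of 0. EIF1AX, which acts with EIF1 on the small subunit, was at an FPKM of 51.5 with control shRNA and 47.4 with LAST shRNA. EIF5, the GTPase-activating protein of eIF2, was at 23.8 and 20.3, a log2 ratio of -0.22. EIF5B, the GTPase that joins the large subunit, was at 44.5 and 47.9, a log2 ratio of 0.10. EIF1AD, named for a domain like that of EIF1AX, was lowest of the group at an FPKM of 7.82 and 6.18, a log2 ratio of -0.30.

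The eIF2 subunits carry the initiator tRNA as a complex, and their mRNAs did not differ in 1 direction. EIF2S2, the beta subunit, was at an FPKM of 109 with control shRNA and 90.6 with LAST shRNA, or 1.202-fold lower. EIF2S1, the alpha subunit that the stress kinases phosphorylate, was at 43.3 and 41.1. EIF2S3, the GTP-binding gamma subunit, was at 91.2 and 96.7. Their log2 ratios were -0.26, -0.07 and 0.08. EIF2S3L, a copy of EIF2S3 whose coding sequence is 98.2% identical to it, was at an FPKM of 1.07 with control shRNA against 1.45 with LAST shRNA, and its separate value is uncertain. EIF2A and EIF2D, which can bring tRNA to the ribosome without eIF2, were at log2 ratios of 0.06 and -0.14, and the median of the 6 genes was -0.01.

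The exchange factor eIF2B reloads eIF2 with GTP and is the complex that phosphorylated eIF2 blocks. Its 5 subunits were all within 0.2 of a log2 ratio of 0, with a median of 0.05. EIF2B5, the catalytic epsilon subunit, was highest at 0.16, from an FPKM of 9.31 with control shRNA to 10.5 with LAST shRNA. EIF2B4, the delta subunit, was lowest at -0.16, from 8.04 to 7.10. The record of EIF2B1, the alpha subunit, overlaps GTF2H3 and DDX55 on the opposite strand, and its FPKM of 15.4 and 15.7 was equal within a log2 ratio of 0.02 while GTF2H3 was at 10.1 and 24.1.

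The eIF3 complex, the largest initiation factor and the scaffold on the small subunit, showed a median log2 ratio of -0.06 over 14 genes, 9 of them below 0 and 12 within 0.2 of it. The summed FPKM of the complex was 957 with control shRNA against 931 with LAST shRNA. EIF3I was its highest single record, at an FPKM of 160 with control shRNA against 146 with LAST shRNA, and EIF3F its lowest, at 18.3 and 19.0. The near-identical EIF3C and EIF3CL, described below, summed to more than EIF3I, at 165 with control shRNA and 153 with LAST shRNA. The highest and lowest subunits thus differed from each other in mRNA level by far more than any subunit differed between the libraries. EIF3G, an RNA-binding subunit that acts in scanning, had the lowest log2 ratio at -0.30, from an FPKM of 38.9 to 31.4. EIF3L had the highest at 0.27, from 76.8 to 92.5. EIF3A, the largest subunit, was at 126 and 117, and EIF3B, which with EIF3A nucleates the complex, at 46.7 and 50.8.

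EIF3C and EIF3CL are a duplicated gene pair on chromosome 16 with coding sequences 99.9% identical, and 96.8% of the 50-base stretches of EIF3C occur in EIF3CL as well. The table gave an FPKM of 50.7 with control shRNA and 48.9 with LAST shRNA for EIF3C, and of 114 and 104 for EIF3CL. How reads were divided between them is uncertain, and their sum, 165 with control shRNA and 153 with LAST shRNA, is the safer value. The first 60 coding bases are shown since they are the same in both genes, with no difference to mark:
EIF3C: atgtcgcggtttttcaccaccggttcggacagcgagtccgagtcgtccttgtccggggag
EIF3CL: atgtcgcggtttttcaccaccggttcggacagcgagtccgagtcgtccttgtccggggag

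**Figure D3:**
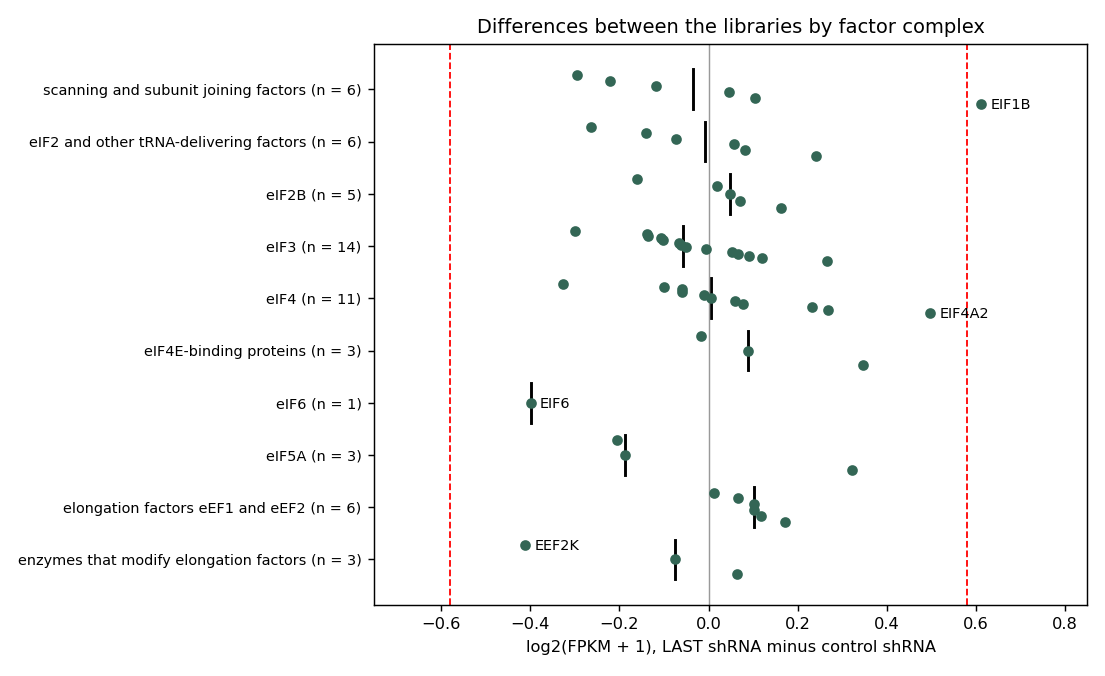
Log2 ratio of LAST shRNA over control shRNA for each of the 58 genes by factor complex, with a black bar at the median of the complex and dashed lines at -0.58 and 0.58. EIF1B alone is past a line, EIF4A2 is next at 0.50, EIF6 and EEF2K lie near -0.40, and the 6 elongation factors all lie between 0.01 and 0.17.

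The eIF4 factors, which bind the cap and unwind the leader of the mRNA, had a median log2 ratio of 0.00 over 11 genes but held some of the widest differences. EIF4A2, an RNA helicase of the cap-binding complex, was at an FPKM of 37.3 with control shRNA and 53.0 with LAST shRNA, 1.42-fold higher (log2 ratio 0.50), and 8.43% of all records were at least as high. Its record, at chr3:186500994-186507689 on the plus strand in hg19, overlaps RFC4 on the opposite strand, which was at 26.1 and 17.97. EIF4A1, the more abundant helicase paralog, was at 136 and 127, so that EIF4A2 held 21.5% of their summed FPKM in the control and 29.5% with LAST shRNA. The sum of both was 173 and 180. EIF4A3, a related helicase of the exon junction complex rather than of initiation, was at 49.5 and 49.1.

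EIF4E, the cap-binding protein, was at an FPKM of 10.7 with control shRNA and 8.34 with LAST shRNA, 1.28-fold lower (log2 ratio -0.33). EIF4E2, a cap-binding homologue that acts mainly in repression, was 1.24-fold higher, at 5.88 and 7.29 (log2 ratio 0.27). EIF4E2 held 35.4% of the summed FPKM of the pair with control shRNA and 46.6% with LAST shRNA. EIF4E3 was weak, at an FPKM of 1.43 and 1.57. The record of EIF4E has 7 exons, of which the largest makes up 82.1% of the transcript, and that of EIF4E2 has a largest exon of 77.7%.

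The scaffold EIF4G1, which joins EIF4E to the helicase and to eIF3, was at an FPKM of 94.8 with control shRNA and 90.9 with LAST shRNA. EIF4G3, its paralog, was at 7.40 and 8.88, a log2 ratio of 0.23. EIF4G2, a scaffold that does not bind EIF4E, was at 107 and 102. The helicase cofactors were also nearly equal, EIF4B at 89.7 and 93.5 and EIF4H at 147 and 148. The ratio of EIF4G1 to EIF4E within a library was 8.85 with control shRNA against 10.9 with LAST shRNA.

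The eIF4E-binding proteins compete with EIF4G1 for EIF4E and are released from it when mTOR phosphorylates them. EIF4EBP2 was at an FPKM of 17.7 with control shRNA and 22.8 with LAST shRNA, 1.29-fold higher (log2 ratio 0.35). EIF4EBP1 was at 14.6 and 15.6 (log2 ratio 0.09), so that EIF4EBP2 held 54.8% of the pair with control shRNA and 59.4% with LAST shRNA. EIF4ENIF1, which carries EIF4E into the nucleus, was at 4.92 and 4.85. EIF4E was thus lower, EIF4EBP2 higher and EIF4EBP1 nearly equal in the libraries. The summed FPKM of EIF4EBP1 and EIF4EBP2 was 3.01 times that of EIF4E with control shRNA and 4.59 times with LAST shRNA. The largest exon makes up 95.1% of the EIF4EBP2 transcript.

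**Figure D4:**
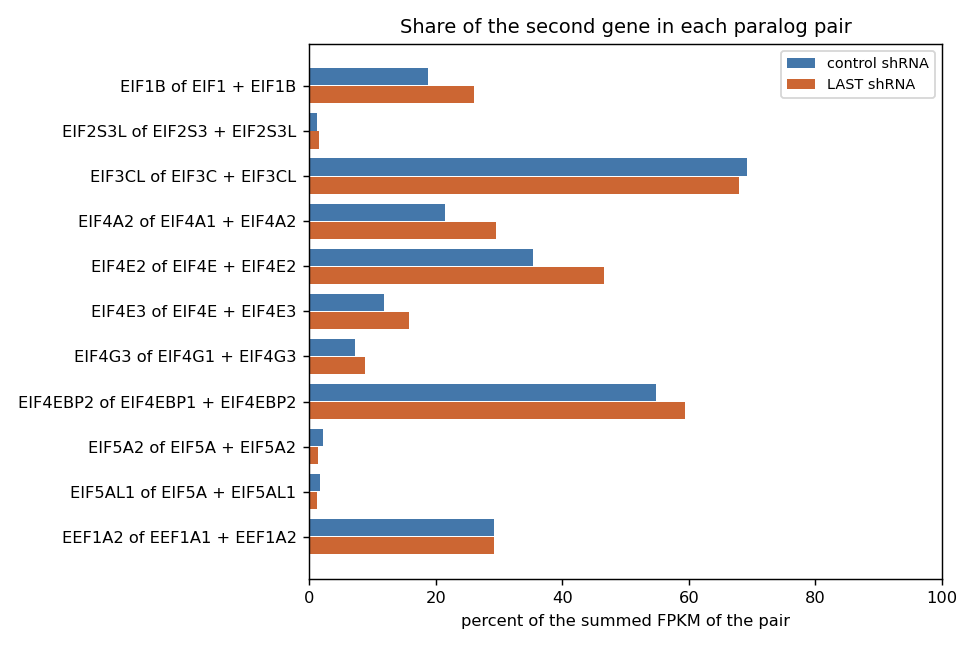
Share of the gene named first in each label in the summed FPKM of its paralog pair, in percent from 0 to 100, with a bar for each library. The shares of EIF1B, EIF4A2 and EIF4E2 are higher with LAST shRNA, while that of EEF1A2 is 29.3% in both.

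EIF6 and the 3 eIF5A genes are described together, and of these 4 genes only EIF5A had a log2 ratio above 0. The median of the eIF5A genes was -0.19, which is the value of the weak copy EIF5AL1. Their summed FPKM, nearly all of it from EIF5A, was higher with LAST shRNA, at 172 with control shRNA against 212. EIF6, which keeps the subunits from joining too early and takes part in making the large subunit, was at an FPKM of 97.4 with control shRNA and 73.6 with LAST shRNA, 1.32-fold lower (log2 ratio -0.40). Of all records, 10.3% had a log2 ratio at least as low. EIF5A, which carries the amino acid hypusine and relieves ribosomes stalled in elongation, was at 165 and 206, 1.25-fold higher (log2 ratio 0.32). Its record overlaps GPS2 on the opposite strand, which was at 12.1 and 10.3. The paralog EIF5A2 was at 3.64 and 3.02. EIF5AL1, an intronless copy with a coding sequence 98.9% identical to that of EIF5A, was at 2.99 and 2.51, and its separate value is uncertain.

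Of the 6 elongation factors, 5 were the most abundant translation factors, and the log2 ratio of each of the 6 was above 0. Their 6 log2 ratios ran from 0.01 to 0.17, with a median of 0.10, and 51.3% of all records were above 0. EEF2, the translocase, was at an FPKM of 555 with control shRNA and 603 with LAST shRNA. EEF1A1, which delivers aminoacyl-tRNA, was at 479 and 514. EEF1A2, its paralog known from muscle and neurons, was at 198 and 213. These 3 log2 ratios were 0.12, 0.10 and 0.10, within 0.02 of each other.

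The eEF1 exchange complex, as a whole, reloads EEF1A1 with GTP. EEF1G was at an FPKM of 332 with control shRNA and 374 with LAST shRNA, the highest log2 ratio of the elongation factors at 0.17. EEF1B2 was at 204 and 214, and EEF1D at 28.99 and 29.2. EEF1G overlaps the record RP11-864I4.1 on the same strand, at 6.37 and 10.4, so reads of the shared stretch could have gone to either. EEF2, EEF1A1, EEF1G, EEF1B2 and EEF1A2 were the 5 highest translation factors in both libraries and kept that order. The 6 genes summed to an FPKM of 1798 with control shRNA and 1947 with LAST shRNA, or 1.16% and 1.25% of all records. Of the translation factors 25 have named pseudogenes in the annotation, with 39 named for EEF1A1. How reads shared with these were counted is not given in the sources used here.

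EEF2K, the kinase that phosphorylates EEF2 and slows elongation, had the lowest log2 ratio of the 58 genes. It was at an FPKM of 6.57 with control shRNA and 4.69 with LAST shRNA, 1.40-fold lower (log2 ratio -0.41), and 9.68% of all records were at least as low. The FPKM of EEF2 was 84.5 times that of EEF2K with control shRNA and 129 times with LAST shRNA. The methyltransferases were closer to 0, EEF2KMT at 5.83 and 5.49 and EEF1AKMT1 at 4.12 and 4.35.

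Many mRNAs of the translation machinery start with a cytosine followed by a run of pyrimidines, the terminal oligopyrimidine (TOP) tract, through which mTOR and LARP1 control their translation. The 9 translation factors of a TOP list had a median log2 ratio of 0.06, with 7 above 0 and all within 0.2 of it, and the other 49 had a median of -0.01. The list held the elongation factors EEF1A1, EEF1B2, EEF1D, EEF1G and EEF2, each above 0 as given above, and EIF3E, EIF3F, EIF3H and EIF4B. Its count above 0 thus largely repeats that of the elongation factors. Of the initiation factors listed, EIF3F and EIF4B were above 0, at log2 ratios of 0.05 and 0.06. EIF3E and EIF3H, both eIF3 subunits, were the members below 0, at an FPKM of 89.8 and 86.0 and of 52.8 and 50.4.

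The tract was also searched for in the sequence itself. RefSeq transcription starts in GRCh38.p14 could be matched to 46 of the 58 genes by symbol, and a C followed by at least 4 more C or T, read on the sense strand from the start base, was found at 1 or more starts of 13 of these (28.3%). Of 27305 genes with a start 5.14% hold it, and of 9306 matched records of the deposited genes 7.67% do. EEF1G of the TOP list had a matched start without the tract and a log2 ratio of 0.17. Starts are shown for EEF1A1, EEF2, EEF1B2, EIF3F and EIF4B of the list, which hold the tract. They are also shown for EIF1B and for the helicase pair EIF4A2 and EIF4A1, which differ in the tract and in log2 ratio. Each has 20 bases before the start and 15 from it, with the tract from the start base in capitals:
EEF1A1: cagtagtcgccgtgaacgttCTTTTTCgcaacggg
EEF2: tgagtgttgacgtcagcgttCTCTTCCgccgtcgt
EEF1B2: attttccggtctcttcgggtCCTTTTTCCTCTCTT
EIF3F: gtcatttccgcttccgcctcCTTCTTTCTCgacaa
EIF4B: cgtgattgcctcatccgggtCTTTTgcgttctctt
EIF4A2: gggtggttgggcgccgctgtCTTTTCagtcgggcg
EIF4A1: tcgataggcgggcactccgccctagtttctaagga
EIF1B: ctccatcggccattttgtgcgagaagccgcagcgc

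In GRCh38.p14 these windows lie at chr6:73521018-73521052 on the minus strand (EEF1A1), chr19:3985449-3985483 on the minus strand (EEF2), chr2:206159875-206159909 on the plus strand (EEF1B2) and chr11:7987317-7987351 on the plus strand (EIF3F). The others lie on the plus strand, at chr12:53006436-53006470 (EIF4B), chr3:186783557-186783591 (EIF4A2), chr17:7572805-7572839 (EIF4A1) and chr3:40309687-40309721 (EIF1B). The tract runs over 16 bases in EEF1B2, past the end of the window shown, and over 5 in EIF4B. EIF4A1 starts with 3 pyrimidines only, and EIF1B with a purine. EEF1B2 has another RefSeq start without the tract, and starts in HCT116 cells were not measured.

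The 13 genes with the tract had a median log2 ratio of 0.07, and 11 of them were above 0. They were EIF2A, EIF2D, EIF2S3, EIF2S3L, EIF3D, EIF3F, EIF3K, EIF3M, EIF4A2, EIF4B, EEF1A1, EEF1B2 and EEF2, with EIF2D at -0.14 and EIF3K at -0.01 below 0. The separate value of EIF2S3L, a weak copy of EIF2S3 at an FPKM of 1.07 with control shRNA and 1.45 with LAST shRNA, is uncertain. The 33 matched genes without it, EEF1G of the TOP list among them, had a median of -0.02, and 15 were above 0. EEF1D, EIF3E and EIF3H of that list had no matched start. The list members below 0, EIF3E and EIF3H, thus did not enter this comparison. Over all matched records the medians were 0.02 for the 714 with the tract, of which 374 were above 0, and 0.01 for the 8592 without it.

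**Figure D5:**
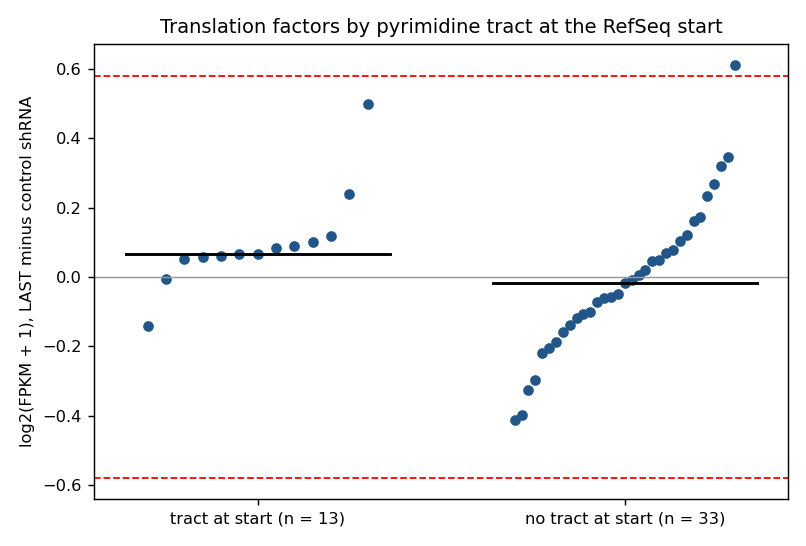
Log2 ratio of LAST shRNA over control shRNA for the 46 translation factors with a matched RefSeq start, split by whether the start has the pyrimidine tract, with points in order of value, a black bar at the median of each set and dashed lines at -0.58 and 0.58. Of the 13 genes with the tract, EIF2D at -0.14 and EIF3K at -0.01 are below 0. EIF4A2 at 0.50 and EIF2S3L at 0.24, whose separate value is uncertain, are the highest. The 33 genes without the tract spread from -0.41 to 0.61.

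Regulators and partners of these factors, taken as a list, had a median absolute log2 ratio of 0.21, close to the 0.19 of all records, and that of the factors was 0.10. The list, of 49 translation genes outside the selection, was chosen with earlier results of these data known, and 48 of them were measured. Of these, 6 were at -0.58 or lower, where 5.88% of all records lay, and 1 was at 0.58 or higher, where 6.80% lay. The median log2 ratio was -0.11, and 33.3% of the 48 were above 0, against 51.3% of all records. The eIF2 kinases had a median of 0.22. EIF2AK2, the kinase activated by double-stranded RNA, was at an FPKM of 12.01 with control shRNA and 19.9 with LAST shRNA, a log2 ratio of 0.68. EIF2AK1, the heme-regulated kinase, was at 35.4 and 34.8. ATF4, the transcription factor whose mRNA is translated when eIF2 is phosphorylated, was at 120 and 20.5, 5.83-fold lower (log2 ratio -2.49), and its target DDIT3 was at 5.51 and 1.91 (log2 ratio -1.16). eIF2 and eIF2B themselves, as given above, had medians of -0.01 and 0.05.

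MTOR, the kinase of the eIF4E-binding proteins, was at an FPKM of 11.5 with control shRNA and 7.33 with LAST shRNA, a log2 ratio of -0.58 just past the threshold. MLST8, its partner subunit, was at 6.69 and 6.82. DPH2 and DPH3, which act in making the diphthamide residue of EEF2, were at log2 ratios of -0.83 and -1.06, from an FPKM of 21.5 to 11.6 and from 4.60 to 1.69, and the 6 diphthamide genes had a median of -0.22. EEFSEC, the elongation factor for selenocysteine, was at 5.04 and 2.38, a log2 ratio of -0.84. The 6 mitochondrial translation factors were each below 0, with a median of -0.24 and none at -0.58.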

How the data were processed

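Total RNA of HCT116 cells was taken 96 hr after infection, and 1 stranded library was made per group. The submitters' processing notes name hg19 as genome build and list cutadapt, FastQC, HISAT2 and StringTie. Their versions and settings, and whether strand was used in counting, were not given in the sources used here. The authors deposited FPKM values per gene, with no counts, so depth and counting error are unknown. Only records whose higher value is at least 0.50 are in the table, and noncoding genes were not analysed here.

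Libraries were grouped by title. The log2 ratio used a pseudocount of 1, with no filter and no further scaling, and genes at or below -0.58 or at or above 0.58 were counted. The study gives the lower cutoff, and the upper one is its mirror image. Because each group was 1 library, no difference between them was tested. All translation factors could be named. The rule required those past the threshold, the 3 highest and 3 lowest log2 ratios and the 5 highest FPKM, and from the list of other translation genes those past the threshold and the 2 nearest 0. The translation factors and lists were chosen with earlier results of these data known, and the branches of the list of other translation genes were summarised after their values were seen. GSPT2 of that list was not analysed here.

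Positions are hg19 as in the table. Exons, coding sequences and pseudogene names came from GENCODE release 29, joined by gene identifier (58 of 58 translation factors matched), and transcription starts from RefSeq in GRCh38.p14, joined by symbol. Coding identity is over a global alignment. Of the 58 genes, 20 overlap a record on the opposite strand. Pseudocounts, filters, scalings and thresholds were varied. Python 3.11.15, numpy 2.4.6, pandas 2.3.3, Biopython 1.88 and matplotlib 3.10.9 were used.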

Additional observations from a re-analysis of the deposited data

How the results depend on the processing

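The counts and medians were recomputed with pseudocounts of 0.1 and 0.5, 3 other scalings, an FPKM of at least 1 in each library, no records overlapping another on the same strand and a threshold of 1, and, chosen after seeing the data, for records at a mean FPKM of at least 10 and for those with a largest exon under 50%. Translation factors at or below -0.58 numbered 0 in each. At a threshold of 1, 0 translation factors were higher, EIF1B included. In the other settings EIF1B was the 1 gene, with a log2 ratio between 0.60 and 0.65. The median over all translation factors ran from 0.01 to 0.07. Medians by complex were recomputed under the pseudocounts, the scalings, the FPKM filter and the omission of overlapping records only. There the eIF4 median took both signs, near 0, and those of the other 9 complexes kept theirs. No paired analysis was possible because each group has 1 library. With unknown depth and no replicates, no difference here can be set against measurement error, and those of the weakest genes, such as EIF2S3L and EIF4E3, have the least behind them.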
